A study of Mus musculus with 6 samples.

Results

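Mitochondria make few of their own proteins and import the rest from the cytosol. The TOM complex of the outer membrane is the common entry gate, with receptors that read the targeting signal and the pore protein Tomm40. Behind it, the TIM23 complex takes proteins with a cleavable presequence into the matrix or inner membrane, while small TIM chaperones ferry hydrophobic proteins across the intermembrane space to the TIM22 complex, which inserts them into the inner membrane. The SLC25 carriers are the best known cargo of that last route, and once inserted they exchange nucleotides, phosphate, amino acids, carboxylates and cofactors between cytosol and matrix. A neuron-like tumour cell depends on both groups to feed its respiratory chain.

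The genes described here are members of these families, with symbols starting with Timm, Tomm or Slc25a followed by a digit, pseudogenes left out. This rule uses symbols alone, but earlier results of these data were known when it was set. The members number 73 of 26656 genes, namely 25 import translocases (the cytosolic co-chaperone Tomm34 counted among them), 47 SLC25 carriers and the antisense transcript Tomm6os. Expression was read as long nanopore reads of PCR-amplified cDNA in N2a cells, a mouse neuroblastoma line with the genotype label WT. Cells of the NPM1 KD group had received the plasmid pLKO.1-shNpm1, which carries an shRNA against Npm1, the gene of the nucleolar protein nucleophosmin 1. Cells of the CTR group had received pLKO.1-shCTR, a non-targeting shRNA. Each group had 3 libraries, taken 72 h after transfection (3 days in vitro). Puromycin at 9.3 µg/ml from 24 h on is listed for the libraries of both groups. The protocol they share words this selection as part of the knockdown experiments, and CTR cells are not named separately. Transfection was transient, 1 shRNA sequence was used, and the number of independent cultures is given as 3 in one description and as 2 in another, so p-values measure the spread between these libraries. The question behind the experiment was whether reduced NPM1 alters the transcriptome.

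Values are regularized log values (rlog, a library-size-normalized expression score on the log2 scale), deposited as whole numbers once they reach 1, so each stands for a range of about 0.5 on either side. A step of 1 is nominally a 2-fold change, and the true rlog difference behind a 1-step separation of the groups can lie anywhere between 0 and 2 steps. At low counts rlog differences can be much smaller than those in reads. Slc25a27 had 5, 4 and 4 reads in CTR and 0, 0 and 1 in NPM1 KD. Its rlog values were 1, 1 and 1 against 0.851, 0.848 and 0.917. Npm1 itself stood at 10, 10 and 10 in CTR and at 8, 8 and 8 in NPM1 KD, a difference of −2 (SE 0.33, limma adjusted p = 3.23e-06). Relative sequencing depth (the number of reads that make up 1 normalized count) was 1.24, 1.3 and 1.11 for the CTR libraries but 0.784, 0.833 and 0.961 for those of NPM1 KD, so depth and group cannot be told apart. Of 16 neuronal and neuroblastoma markers, 8 were expressed well enough to be tested, 5 of these were lower in NPM1 KD without overlap, and Chga (−1.33, limma adjusted p = 0.026) and Chgb (−1.67, limma adjusted p = 0.0011) passed the test, while Nefl and Nefm were listed at 0. Of 12 markers of other cell types, 7 had no read and none was high enough to be tested (at most 19 reads, for Pecam1). In bulk RNA, fewer cells of a type and less RNA per cell cannot be told apart, and the part of the neuronal markers in what follows was not tested.

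Of the 73 members, 32 reached the minimum for testing, a mean rlog no lower than log2 of 10 (17 translocases and 15 carriers), 32 had few reads (5 and 27), and 9 had no read in any library. The members without a read were Timm8a2, Tomm20l, Tomm6, Slc25a18, Slc25a31, Slc25a34, Slc25a48, Slc25a54 and Tomm6os. In the GENCODE M21 annotation, which is not the build of the files, other genes cover 84.2% of the exonic bases of Tomm6 and 51.3% of those of Tomm6os, and no absence of expression can be read from them. Tested members had authors' mean normalized counts between 11.8 (Slc25a28) and 891 (Slc25a4).

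No tested member passed the test (limma, adjusted p below 0.05 over 5752 genes), against 0.0695% of all tested genes called higher and 0.417% called lower. Before adjustment, 4 translocases and no carrier were higher at p below 0.05 (6.07% of all tested genes), and no translocase and 2 carriers were lower (8.07% of all tested genes). In 4 members the groups did not overlap: Timm10 and Timm17a were higher in all 3 NPM1 KD libraries (2.19% of all tested genes were), and Slc25a1 and Slc25a4 were lower in all 3 (3.41% of all tested genes were). Without the lower limit on the variance within groups, limma called these 4 genes (2.14% of all tested genes called higher, 3.09% lower), and the fit without an intensity trend called them as well (adjusted p = 0.0304 for each). That limit stands for the rounding, without which genes with identical values within both groups have a variance of 0.

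Since these 4 genes carry the largest differences among the tested members, their promoters are shown, from 250 bases before to 50 after the start site, 5′ to 3′ on the strand of the gene (RefSeq, GRCm38.p6). Capitals mark matches, on either strand, to any of 6 short motifs that were chosen after the values had been seen.
Timm10, chr2:84826771-84827070, plus strand: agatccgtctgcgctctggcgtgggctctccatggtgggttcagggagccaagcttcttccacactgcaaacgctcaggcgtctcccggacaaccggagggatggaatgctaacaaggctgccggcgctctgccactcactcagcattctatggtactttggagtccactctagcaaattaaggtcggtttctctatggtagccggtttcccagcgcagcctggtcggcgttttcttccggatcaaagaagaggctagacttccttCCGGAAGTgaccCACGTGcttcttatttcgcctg
Timm17a, chr1:135313688-135313987, minus strand: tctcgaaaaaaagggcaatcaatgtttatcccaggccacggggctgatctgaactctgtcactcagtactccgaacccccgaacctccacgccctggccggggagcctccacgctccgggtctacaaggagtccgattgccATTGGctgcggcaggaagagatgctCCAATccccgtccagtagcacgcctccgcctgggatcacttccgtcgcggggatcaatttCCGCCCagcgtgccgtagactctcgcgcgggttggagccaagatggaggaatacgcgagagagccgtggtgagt
Slc25a1, chr16:17928170-17928469, minus strand: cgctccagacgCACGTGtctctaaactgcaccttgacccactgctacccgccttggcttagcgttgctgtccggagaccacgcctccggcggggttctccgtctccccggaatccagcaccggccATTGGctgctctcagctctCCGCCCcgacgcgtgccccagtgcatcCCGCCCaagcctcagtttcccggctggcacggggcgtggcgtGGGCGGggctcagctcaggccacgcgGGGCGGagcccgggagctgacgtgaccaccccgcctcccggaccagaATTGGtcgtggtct
Slc25a4, chr8:46211013-46211312, minus strand: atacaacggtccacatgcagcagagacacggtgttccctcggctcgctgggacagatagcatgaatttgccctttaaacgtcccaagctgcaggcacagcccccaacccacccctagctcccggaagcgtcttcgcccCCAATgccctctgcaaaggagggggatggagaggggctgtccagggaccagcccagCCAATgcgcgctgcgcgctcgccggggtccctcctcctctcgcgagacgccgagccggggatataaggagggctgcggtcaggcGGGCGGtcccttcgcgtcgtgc
The motifs searched were NRF1 (GCATGCGC), the ETS site bound by GABP (CCGGAAGT), the E-box CACGTG, the GC box GGGCGG, the CCAAT box and CRE (TGACGTCA), all linked by textbook knowledge to genes of mitochondria or of growth. The Timm10 window held an ETS match that starts at position 17 after the start site and an E-box match at position 29, motifs present in 4.0% and 7.24% of 27025 promoters. The Slc25a1 window held 4 GC boxes, 2 CCAAT boxes and an E-box. The windows of Timm17a and Slc25a4 each held 2 CCAAT boxes and a GC box, motifs present in 37.9% and 35.9% of all promoters, and in 39.9% and 68.9% of the promoters of tested genes. None of the printed matches overlap each other. Promoters were found for 27 of the 32 tested members. The ETS motif occurred in 3 of 15 translocase and 1 of 12 carrier promoters, the GC box in 8 and 11, the CCAAT box in 5 and 6, the E-box in 3 and 2, NRF1 in 1 and 0, and CRE in none of either. The shares for the promoters of all tested genes were 10.4% for ETS, 11.7% for the E-box, 6.94% for NRF1 and 4.01% for CRE. A match is a run of letters and not a measured binding site.

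**Figure D1:**
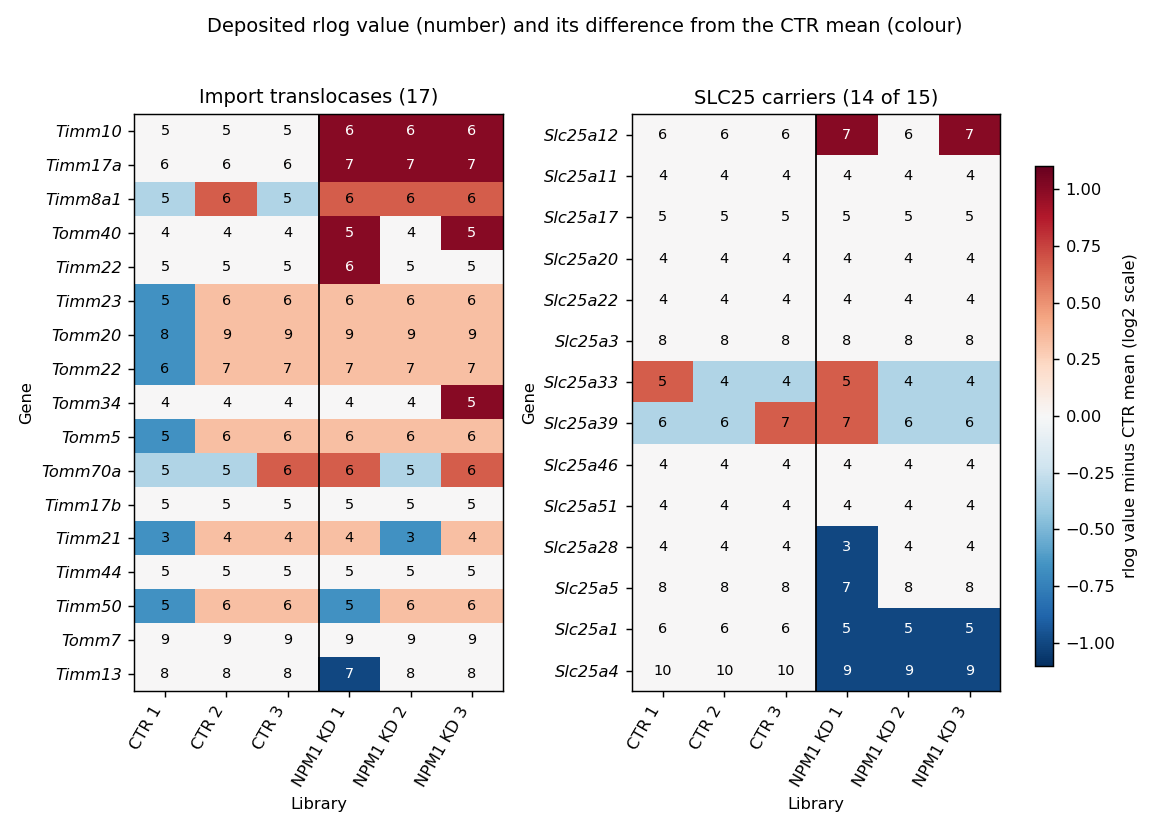
Deposited rlog values of the 17 tested import translocases (left) and 14 of the 15 tested SLC25 carriers (right), with genes in rows and libraries in columns. Numbers are the deposited values and colour is the value minus the mean of the gene in CTR (log2 scale). Timm10 and Timm17a are 1 step higher in all 3 NPM1 KD libraries, Slc25a1 and Slc25a4 are 1 step lower in all 3, and the CTR 1 library is below the other CTR libraries in 6 translocases.

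The TOM complex was measured through 6 tested subunits, of which 5 had a higher mean in NPM1 KD and 1 an equal one, with a mean difference of 0.33. Tomm40, the pore, was at 4, 4 and 4 in CTR and at 5, 4 and 5 in NPM1 KD (0.67, SE 0.33, limma adjusted p = 0.33). The 3 receptors gave smaller differences. Tomm20, a receptor for presequences, was at 8, 9 and 9 in CTR and at 9, 9 and 9 in NPM1 KD. Tomm22, the central receptor that links Tomm20 to the pore, was at 6, 7 and 7 against 7, 7 and 7. Tomm70a, the receptor preferred by carrier precursors, was at 5, 5 and 6 against 6, 5 and 6. For all 3 receptors the groups shared values, the difference was 0.33 and the limma adjusted p was 0.713. The small subunit Tomm5 had the same shape, at 5, 6 and 6 against 6, 6 and 6. Its partner Tomm7 stood at 9 in all 6 libraries. In Tomm20, Tomm22 and Tomm5 the difference rested on the CTR 1 library alone, since the other 5 libraries had one value.

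The TIM23 complex gave 6 tested subunits, 2 of them with a higher mean in NPM1 KD and 4 with an equal one (mean difference 0.22). Timm17a (ENSMUSG00000062580), a channel-forming partner of Timm23, was at 6, 6 and 6 in CTR and at 7, 7 and 7 in NPM1 KD (1, SE 0.35, limma adjusted p = 0.0791). Its close homologue Timm17b, which takes the same place in an alternative form of the complex, was at 5 in every library, and whether the pair differ in response was not tested. Timm23 itself was at 5, 6 and 6 in CTR and at 6, 6 and 6 in NPM1 KD, again with CTR 1 as the only low library. Timm44, which anchors the matrix import motor, was at 5 in all 6 libraries. Timm50, the presequence receptor of the complex, was at 5, 6 and 6 in both groups. Timm21, which brings TOM and TIM23 together, was at 3, 4 and 4 in CTR and at 4, 3 and 4 in NPM1 KD. The complex therefore gave 1 subunit with separate groups beside 5 whose values overlapped.

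The carrier import route, made of small TIM chaperones and TIM22, held 4 tested members, of which 3 had a higher mean and 1 a lower one. Timm10 (ENSMUSG00000027076), which forms the main chaperone hexamer with Timm9, was at 5, 5 and 5 in CTR and at 6, 6 and 6 in NPM1 KD (1, SE 0.34, limma adjusted p = 0.0791). Timm9 had too few reads to be tested in the same way, with 9, 7 and 3 reads in CTR and 3, 5 and 2 in NPM1 KD, or 5.11 ± 2.29 against 3.97 ± 1.97 reads per unit of relative depth (SD, n = 3 each). The mean of Timm9 was thus lower where that of Timm10 was higher, but the spread of Timm9 was larger than its difference. Timm8a1, a chaperone whose human counterpart is lost in deafness-dystonia syndrome, was at 5, 6 and 5 against 6, 6 and 6 (0.67, SE 0.34, limma adjusted p = 0.33). Its partner Timm13 was at 8, 8 and 8 against 7, 8 and 8, a difference of −0.33. Timm22, the insertion channel, was at 5, 5 and 5 against 6, 5 and 5, and Tomm34, a cytosolic co-chaperone that escorts precursors, was at 4, 4 and 4 against 4, 4 and 5. In both the groups shared values and the difference was 0.33.

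Over the 17 tested translocases, 11 had a higher mean in NPM1 KD (64.7%), 5 an equal one (29.4%) and 1 a lower one (5.88%), with a median difference of 0.33 and a mean of 0.31. Over all 5752 tested genes 24.6% were higher, 48.0% equal and 27.4% lower, with a median of 0.00 and a mean of −0.02. The CTR 1 library weighed on this: without it 7 translocases were higher, 7 equal and 3 lower, and the mean difference was 0.18. With any other single library left out it lay between 0.25 and 0.38.

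**Figure D2:**
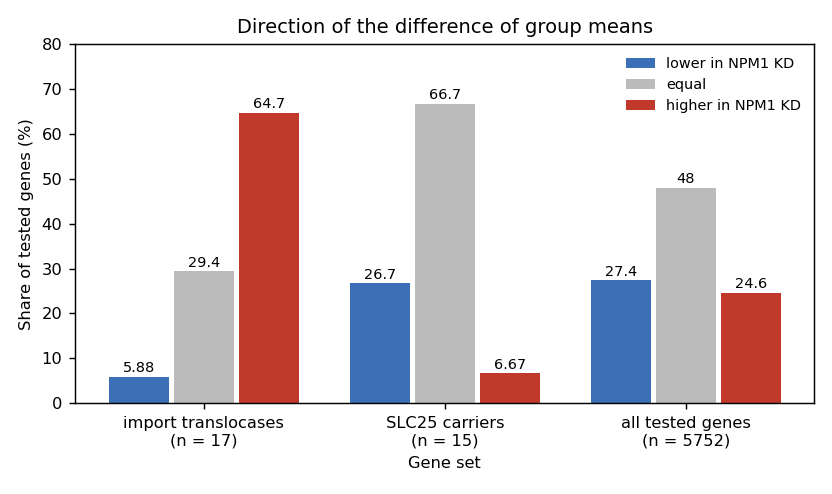
Share of tested genes (%) whose mean rlog value was lower, equal or higher in NPM1 KD than in CTR, for 17 import translocases, 15 SLC25 carriers and all 5752 tested genes. Translocases were higher in 64.7% and carriers equal in 66.7%, beside 24.6% higher and 48.0% equal over all tested genes.

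The SLC25 carriers mostly had equal means, but many were low. A mean rlog of log2 of 20 was reached by 8 of the 15, against 15 of the 17 translocases. Among these 8 carriers, 1 was higher, 4 equal and 3 lower. Of the 15 tested, 1 had a higher mean in NPM1 KD (6.67%), 10 an equal one (66.7%) and 4 a lower one (26.7%), with a median difference of 0.00 and a mean of −0.13, and 8 had one value in all 6 libraries. The mean difference lay between −0.16 and −0.11 when any 1 library was left out, but it depended on which carriers were counted. It was −0.21 over the 8 carriers with a mean rlog of log2 of 20 or more, −0.29 over the 7 that varied between libraries, −0.02 over all 42 with any read, the mean of all genes in that setting being −0.02 as well, and 0.00 over the 13 other than Slc25a1 and Slc25a4.

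Among the adenine nucleotide translocators, which exchange ADP for ATP and are the most abundant proteins of the family in many tissues, both expressed isoforms had a lower mean in NPM1 KD, and whether they differ in response was not tested. Slc25a4 (ENSMUSG00000031633), the isoform known from heart, muscle and brain, was at 10, 10 and 10 in CTR and at 9, 9 and 9 in NPM1 KD (−1, SE 0.33, limma adjusted p = 0.0791). Slc25a5, the isoform of proliferating cells, was at 8, 8 and 8 against 7, 8 and 8 (−0.33, limma adjusted p = 0.713). The lower mean of Slc25a5 rested on the NPM1 KD 1 library alone, without which the difference was 0. The testis isoform Slc25a31 had no read. Slc25a3, which brings in the phosphate for ATP synthesis, was at 8 in every library.

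The citrate carrier Slc25a1 (ENSMUSG00000003528), which exports citrate for cytosolic acetyl-CoA, was at 6, 6 and 6 in CTR and at 5, 5 and 5 in NPM1 KD (−1, SE 0.34, limma adjusted p = 0.0791). Carriers of the malate-aspartate shuttle, which moves reducing equivalents into mitochondria, had no lower mean among the tested genes. The aspartate/glutamate carrier Slc25a12, the form of brain and muscle, was at 6, 6 and 6 against 7, 6 and 7 (0.67, SE 0.34, limma adjusted p = 0.33), while its liver form Slc25a13 had no read in CTR and 0, 1 and 1 in NPM1 KD. The oxoglutarate carrier Slc25a11 stood at 4 throughout. One value was also listed throughout for Slc25a17, a peroxisomal carrier of cofactors (5), and for Slc25a20 (carnitine and acylcarnitines), Slc25a22 (glutamate), Slc25a46 (an outer membrane protein linked to fission) and Slc25a51 (NAD), all at 4. Because of the rounding, genes with one value throughout show only that any rlog difference was smaller than about 1 step. At low counts the difference in reads can be larger: Slc25a23, at 3 in all 6 libraries, differed by 1.4 on the log2 scale. The iron carrier Slc25a28 was at 4, 4 and 4 against 3, 4 and 4. Slc25a39, a glutathione carrier, and Slc25a33, a pyrimidine nucleotide carrier, varied within both groups and had equal means.

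With all tested members counted, the mean of the translocases stood further above that of the carriers in each NPM1 KD library than in any CTR library. On the rlog scale the 3 CTR libraries had gaps of 0.00, 0.48 and 0.42, and the 3 NPM1 KD libraries gaps of 0.73, 0.67 and 0.84. The translocases averaged 5.47, 5.88 and 5.88 in CTR against 6.06, 5.94 and 6.18 in NPM1 KD, and the carriers 5.47, 5.40 and 5.47 against 5.33, 5.27 and 5.33. The groups did not overlap for either class, but this rested on the 4 genes with separate groups. Without Slc25a1 and Slc25a4, an omission made after seeing the values, the other 13 carriers averaged 5.08, 5 and 5.08 in both groups. Without Timm10 and Timm17a, the other 15 translocases averaged 5.47, 5.93 and 5.93 in CTR against 6, 5.87 and 6.13 in NPM1 KD, which overlap, and so did the gaps (0.39, 0.93 and 0.86 against 0.92, 0.87 and 1.06). All tested genes averaged 5.31 in each CTR library and between 5.27 and 5.3 in NPM1 KD. When the library means were made equal, the mean differences were 0.34 for translocases and −0.11 for carriers. No test was made on these averages, since the members were chosen with results of these data known.

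**Figure D3:**
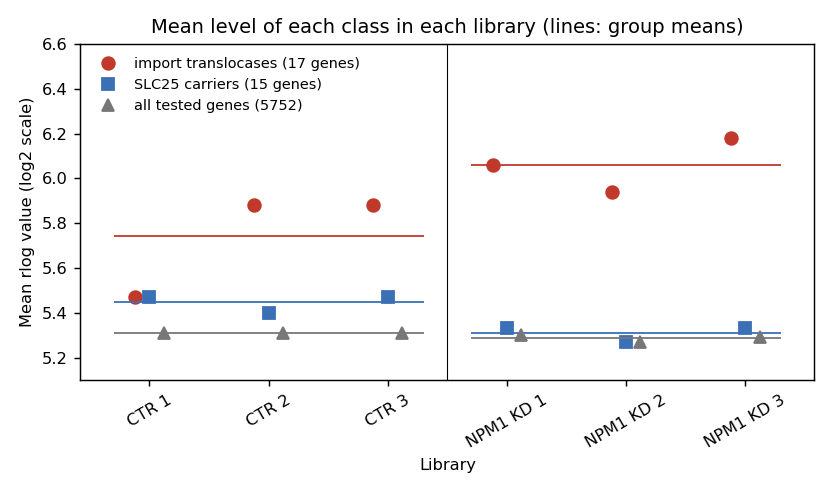
Mean rlog value (log2 scale) of the 17 tested translocases, 15 tested carriers and all 5752 tested genes in each library, with lines at the group means. Translocases lie between 5.94 and 6.18 in NPM1 KD and between 5.47 and 5.88 in CTR, and carriers between 5.27 and 5.33 against 5.40 to 5.47. The vertical axis does not start at 0.

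Members with few reads were followed through whole reads, recovered from the mean normalized counts of the authors, and compared per unit of relative depth. Of the 32, 16 had a mean of at least 3 and were tested among 3497 such genes. None of them passed (limma on log2 of normalized reads plus 0.5, adjusted p below 0.05, 0.0572% of such genes called). At an unadjusted p below 0.05, 1 was higher (4.0% of such genes) and 1 lower (10.1% of such genes). The groups did not overlap in 2 members that were higher and 2 that were lower, against 7.18% and 12.7% of such genes. The median difference was 0.08 on the log2 scale in these members and −0.13 in all such genes.

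All 4 members with separate groups were carriers. Slc25a23, a calcium-regulated carrier of ATP-magnesium and phosphate, had 4, 8 and 3 reads in CTR and 10, 8 and 10 in NPM1 KD, or 4.02 ± 1.86 against 10.9 ± 1.64 per unit of depth (SD, n = 3 each; log2 difference 1.40, SE 0.49, limma adjusted p = 0.193). Slc25a15, the ornithine carrier of the urea cycle, had 2, 4 and 2 reads against 3, 6 and 6, or 2.16 ± 0.795 against 5.76 ± 1.74 (1.23, SE 0.63, limma adjusted p = 0.376). These were the higher pair. In the lower pair, Slc25a40, a relative of the glutathione carrier Slc25a39, had 10, 10 and 7 reads in CTR and 4, 2 and 1 in NPM1 KD, or 7.34 ± 0.934 against 2.85 ± 2.07 (−1.41, SE 0.59, limma adjusted p = 0.291). Slc25a37, mitoferrin 1, which supplies iron for haem, had 21, 10 and 9 reads against 6, 4 and 7, or 10.9 ± 5.22 against 6.58 ± 1.55 (−0.62, SE 0.43, limma adjusted p = 0.53). Its groups touched closely, at 7.68 in the lowest CTR and 7.66 in the highest NPM1 KD library.

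**Figure D4:**
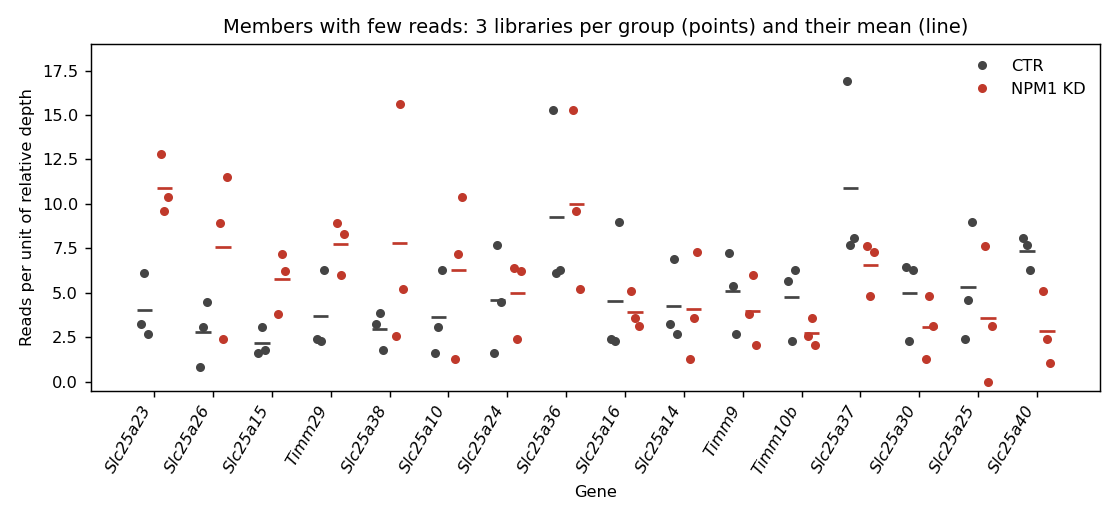
Reads per unit of relative depth for the 16 members with a mean of 3 to 10, ordered by the log2 difference between groups, with points for the 3 libraries of each group and a line at their mean. Slc25a23 and Slc25a15 lie higher in all 3 NPM1 KD libraries, Slc25a37 and Slc25a40 lie lower in all 3, and the groups overlap in the other 12.

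The 3 translocases of this kind with enough reads to test overlapped between groups. Timm29, a subunit of the TIM22 complex, had 3, 3 and 7 reads in CTR and 7, 5 and 8 in NPM1 KD (log2 difference 1.1, SE 0.54, limma adjusted p = 0.367). Timm10b, which docks the small TIM chaperones on TIM22, had 7, 3 and 7 reads against 2, 3 and 2 (−0.62, SE 0.64, limma adjusted p = 0.702), and other genes cover 22.1% of its exonic bases. Over the 5 translocases with few reads the sum was 15.2 ± 3.89 reads per unit of depth in CTR and 16.0 ± 2.91 in NPM1 KD. Over the 27 carriers it was 84.0 ± 2.42 against 91.4 ± 9.49 (SD, n = 3 each). Both differences were smaller than the spread between libraries of the NPM1 KD group. For the carriers the difference was larger than the SD of the CTR group, and the groups overlapped.

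A further 8 members had a mean of 1 to below 3, and in 2 of them the groups did not overlap, both lower in NPM1 KD, against 9.67% of such genes lower and 6.6% higher. They were Slc25a27, the brain uncoupling protein 4, with 5, 4 and 4 reads in CTR and 0, 0 and 1 in NPM1 KD, and Slc25a29, a carrier of basic amino acids, with 2, 3 and 6 reads against 1, 1 and 0. The last 8 members had a mean below 1, too little for a comparison.

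The genes that work with the members gave 2 further lists. Of 29 other import and processing factors (motor chaperones, sorting machinery, processing peptidases and quality-control proteases), 25 were tested: none passed, none had separate groups, 6 were higher, 15 equal and 4 lower, and the mean difference was 0.05. The largest differences were 0.67 in Grpel1, the nucleotide exchange factor of the import motor, in Pmpcb, the catalytic subunit of the presequence protease, and in Yme1l1, an inner membrane protease, and −0.67 in Timmdc1, an assembly factor of respiratory complex I that resembles Timm23 (limma adjusted p = 0.33 for each). Of 22 other mitochondrial transport proteins, 16 were tested and none passed, with 3 higher, 4 equal and 9 lower and a mean difference of −0.23. Ucp2, an uncoupling protein of the SLC25 family under another name, was at 6, 6 and 6 in CTR and at 5, 5 and 5 in NPM1 KD. Mcub, a subunit of the calcium uniporter that lowers its activity, was at 5, 5 and 5 against 4, 4 and 4. The groups did not overlap in either gene (limma adjusted p = 0.0791 for both). In this list of 16 tested genes, 3 were lower without overlap and 0 higher. Over all tested genes the shares were 3.41% lower and 2.19% higher. Mpc2, a subunit of the pyruvate carrier, was at 5, 5 and 6 against 6, 6 and 6.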

How the data were processed

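The authors deposited rlog values (an expression score on the log2 scale) and a table with the mean normalized count of each gene. Per the submitters' processing notes, GRCm39, minimap2, featureCounts and DESeq2 were used. Versions, annotation and strand setting are not given in the sources used here. The second table also holds the authors' own comparison (fold changes, p-values), which was not used. The paper describes no RNA-seq, so groups came from the labels.

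Of 26913 rows, 257 repeat a gene and were dropped. The test was limma (version 3.58.1, R 4.3.3) on genes whose mean rlog reached 3.32, which is log2 of 10 (intensity trend, variance within groups at least 0.0833, two-sided, Benjamini-Hochberg over 5752 genes, threshold 0.05). All 75364 values of 1 or more in size are whole. Total reads are not in the tables. The mean normalized counts sum to 841220. Relative depths came from genes with a single read (assignment to libraries through rlog decimals, correlation 0.998, next best 0.658). With them, the mean counts of all 8804 genes between 0 and 10 had exactly 1 whole-read solution (pseudocount 0.5 in the fit, minimum mean 3). This was added after the data had been seen. Scripts were tested on simulated data.

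Members and lists were chosen with earlier results of these data known. Values per library are given for members past the threshold, without overlap between groups or with a difference over 0.5, and for a set list of core subunits and carriers. Members with few reads, other examples and motifs were chosen after their values were seen. Alternatives were the variance limit, the trend, the filter, equal library means, a replicate block and leaving out each library. Single genes withheld from the text are not reported here and remain in the counts.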

Additional observations from a re-analysis of the deposited data

How the results depend on the processing

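Without the lower limit on the variance, 2 translocases (Timm10, Timm17a) were called higher and 2 carriers (Slc25a1, Slc25a4) lower, with limma adjusted p from 1.01e-11 to 3.58e-11, values that rest on variances of 0. Without the intensity trend the same 4 genes were called, 2 and 2, each at adjusted p = 0.0304. In the other alternatives no member was called, and their adjusted p reached 0.248 with a library left out. Over all genes, 4 higher and 24 lower calls became 123 and 178 without the variance limit, 132 and 218 without the trend, 1 and 10 without a filter, and between 0 and 2 higher and 5 and 9 lower with a library left out. Of the values of the 17 tested members named by rule under the alternatives, 212 kept their side of the threshold, 8 passed it (the 4 genes above in 2 settings) and 0 reversed. A member with a difference of 0 in the main fit could not count as reversed. Timm50, one of these, ranged from −0.33 to 0.33 with a library left out.

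The mean difference of the carriers was −0.13. It was −0.21 with a minimum of log2 of 20 (8 carriers), −0.02 with no filter (42 carriers), and −0.29 without carriers that had one value throughout (7 carriers, chosen after seeing the data). Without the members whose groups do not overlap, also chosen after seeing the data, it was 0 for the other 13 carriers and 0.22 for the other 15 translocases. The number of carriers higher without overlap ranged from 0 to 1 (Slc25a12, without NPM1 KD 2) when a library was left out. That of translocases ranged from 2 to 3, with Timm8a1 added without CTR 2 and Tomm40 added without NPM1 KD 2. The mean difference of the translocases ranged from 0.18 (without CTR 1) to 0.38.

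Same-numbered libraries did not deviate together (correlations 0.009, 0.001 and 0.03). These came from rounded values, with one value in all libraries for 2310 of the 5752 tested genes. Small shared shifts would be lost, so the correlations cannot decide whether the numbers pair cultures. With the replicate block no member was called, the adjusted p of the 4 genes was 0.232, and 1 higher and 7 lower calls were left over all genes. Groups of 3 are too small for a test of single outlying libraries. Rounding and low counts limit what can be seen. A member with one value in all libraries can hide an rlog difference of up to about 1 step, and a larger one in reads where counts are low.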
